A study of Mus musculus with 3 samples.

Results

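Nuclei of 2-month-old mouse interscapular brown adipose tissue (iBAT) were compared in groups chosen by their own measured counts of 2 genes, so the levels of those genes are a description and not a result. Nuclei with at least 2 UMIs of Gulp1 and 0 of Fbxo31 (Gulp1 nuclei, 1004) were set against nuclei with at least 2 UMIs of Fbxo31 and 0 of Gulp1 (Fbxo31 nuclei, 311). UMIs are unique molecular identifiers, 1 for each captured RNA molecule. Both groups came from barcodes with 2000 to 4000 UMIs and fewer than 3 UMIs summed over 8 markers of other cell types (Flt1, Ptprb, Pdgfra, Dcn, Mrc1, F13a1, Abcc9 and Trpc6). Of the 10000 barcodes of this library, 5298 lay in that depth window and 5172 also met the marker limit. The 1315 nuclei compared were 13.15% of the library, and the whole series held 30000 barcodes.

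The series consists of single-nuclei RNA sequencing of iBAT from wild type mice of 2, 12 and 24 months, with 1 library per age. The study's methods name male mice, but not how they were divided among the libraries, and a library may hold pooled animals. The tissue was homogenised to favour nuclei of brown adipocytes, and nuclei were sorted before capture, so shares of cell types are not those of the tissue. With 1 library per age there was no replicate and no test between groups was possible. Intervals in parentheses are exact and at the 95% level, and they cover counting error alone.

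Brown adipocytes hold many small lipid droplets and mitochondria, and they burn fatty acids and glucose to release heat when noradrenaline reaches their beta-adrenergic receptors. Heat comes mainly from UCP1, which lets protons flow back across the inner mitochondrial membrane without making ATP, and DIO2, which makes active thyroid hormone inside the cell, raises this capacity. GULP1 is an adaptor protein first known from the engulfment of dying cells. FBXO31 is the substrate-binding subunit of an SCF ubiquitin ligase, which marks proteins for degradation.

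Both groups carried the RNA of adipocytes. The summed level of 12 adipocyte markers was 13332 CPM (UMIs of a gene per 1000000 UMIs of the group) in Gulp1 nuclei and 12313 CPM in Fbxo31 nuclei, against 7199 CPM in 54 nuclei of the same depth with at least 6 marker UMIs of other cell types. None of the 12 differed by 1.5-fold. Perilipin 1 (Plin1) stood at 768 and 626 CPM, and adiponectin (Adipoq) at 175 and 122 CPM. Depth was alike, with a median of 2734.5 UMIs and 1479.5 genes in Gulp1 nuclei and 2747 UMIs and 1471 genes in Fbxo31 nuclei, and the mean mitochondrial share was 0.028% and 0.032%. Xist, expressed from the inactive X chromosome of female cells, had 0 UMIs in both groups.

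The markers of other cell types did not stand level. The summed level of the 6 fibroblast and progenitor markers was 89.9 CPM in Gulp1 nuclei and 21.7 CPM in Fbxo31 nuclei, a ratio of 4.14 (2.6 to 7.0). All 4 of these markers with at least 20 UMIs were higher in Gulp1 nuclei (Col3a1, Dcn, Fbn1 and Lama2), and none was at 0 in both groups. At least 1 such UMI was present in 8.67% (7.0 to 10.6) of Gulp1 nuclei and in 5.79% (3.47 to 8.99) of Fbxo31 nuclei, and 10 Gulp1 nuclei but 0 Fbxo31 nuclei held 3 or more. Macrophage markers summed to 3.89 and 5.71 CPM, endothelial markers to 34.3 and 32.0 CPM and pericyte and smooth muscle markers to 47.4 and 63.9 CPM. Skeletal muscle, red blood cell and lymphocyte markers were each under 10 CPM in both groups. Results below are therefore also given for the 917 Gulp1 nuclei and 293 Fbxo31 nuclei without any fibroblast marker UMI, a set chosen after the data had been seen.

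The rule left most nuclei outside both groups. Few UMIs decided membership, so the counts below cannot show whether separate kinds of nuclei exist. Gulp1 (chr1:44551511-44796838 in mm10, plus strand) was detected in 49.8% of the 5172 nuclei and Fbxo31 (chr8:121549440-121578806, minus strand, overlapping the predicted gene Gm20388) in 31.1%. Both were detected together in 711 nuclei, and in 104 nuclei both had at least 2 UMIs. Neither was detected in 1697. Fbxo31 was detected in 34.7% (32.8 to 36.5) of nuclei with 0 Gulp1 UMIs, in 31.0% (28.5 to 33.7) of those with 1 and in 24.4% (22.1 to 26.8) of those with 2 or more. The most common Gulp1 nucleus had just reached the limit, since 485 of the 1004 held exactly 2 UMIs, and so did 191 of the 311 Fbxo31 nuclei. Gulp1 nuclei held at most 11 UMIs of Gulp1 and Fbxo31 nuclei at most 8 of Fbxo31.

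Gulp1 was not a gene of adipocytes alone. After each nucleus was thinned to 2000 UMIs, Gulp1 was detected in 42.5% (41.2 to 43.9) of the 5172 nuclei (median depth before thinning 2623.5 UMIs) and in 38.9% (25.9 to 53.1) of the 54 nuclei of other cell types (2529 UMIs). Its level there was 411 CPM (313 to 529), against 375 CPM (365 to 385) in the 5172 nuclei, so detection of Gulp1 by itself did not stand above other cell types. Fbxo31 was detected in 24.9% (23.7 to 26.1) of the 5172 nuclei and in 7.41% (2.06 to 17.9) of the nuclei of other cell types.

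Kcnd2 (a voltage-gated potassium channel) and Synm (the intermediate filament protein synemin), the other genes proposed to mark such adipocytes, did not separate the groups in the depth window. Kcnd2 was at 133 CPM in Gulp1 and 139 CPM in Fbxo31 nuclei, a ratio of 0.958 (0.779 to 1.18). Synm was at 22.3 and 32.0 CPM, a ratio of 0.697 (0.440 to 1.13). In nuclei outside the window the same rule gave other values. Kcnd2 was higher in Gulp1 nuclei of 1000 to 2000 UMIs, at a ratio of 2.02 (1.05 to 4.27), and in those of 4000 to 8000 UMIs, at 2.08 (1.51 to 2.94). Synm was lower there, at 0.18 (0.049 to 0.562) and 0.337 (0.194 to 0.594). The groups are therefore called here by the genes that chose them and not by a state.

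Ucp1 differed between the groups. It stood at 551 CPM (524 to 579) in Gulp1 nuclei and at 255 CPM (222 to 290) in Fbxo31 nuclei, a ratio of 2.16 (1.88 to 2.5). Nuclei with both genes and nuclei with neither lay between, at 400 CPM (373 to 429) and 404 CPM (386 to 423). The level in Fbxo31 nuclei was within the interval of the 54 nuclei of other cell types, 240 CPM (167 to 333). The part of free RNA in these levels was not tested. After thinning, Ucp1 was detected in 58.5% (55.3 to 61.5) of Gulp1 nuclei and 39.5% (34.1 to 45.2) of Fbxo31 nuclei. In nuclei of other cell types the share was 42.6% (29.2 to 56.8), an interval that held the share of Fbxo31 nuclei. Those 54 nuclei also held adipocyte markers at 7199 CPM, so they do not measure free RNA alone. Before thinning the shares in Gulp1 and Fbxo31 nuclei were 66.5% and 47.3%. Single nuclei overlapped widely, with 0 to 10 Ucp1 UMIs (median 1) among Gulp1 nuclei and 0 to 7 (median 0) among Fbxo31 nuclei. Without nuclei holding a fibroblast marker UMI the ratio was 2.15 (1.86 to 2.49).

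The number of UMIs of each chosen gene showed how Ucp1 moved with it. With Fbxo31 at 0, Ucp1 was at 404 CPM in nuclei without Gulp1, 551 CPM with 1 Gulp1 UMI, 543 CPM with 2, 577 CPM with 3 and 540 CPM with 4 or more. Nuclei just outside the limit thus had a Ucp1 level close to that of those just inside. With Gulp1 at 0, Ucp1 was at 335 CPM with 1 Fbxo31 UMI, 288 CPM with 2, 196 CPM with 3 and 213 CPM with 4 or more. The difference between the groups was therefore made up of a step at the first Gulp1 UMI and a decline across Fbxo31 UMIs. These are levels summed over nuclei, and they do not show whether single nuclei divide into Ucp1-rich and Ucp1-poor ones.

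**Figure D1:**
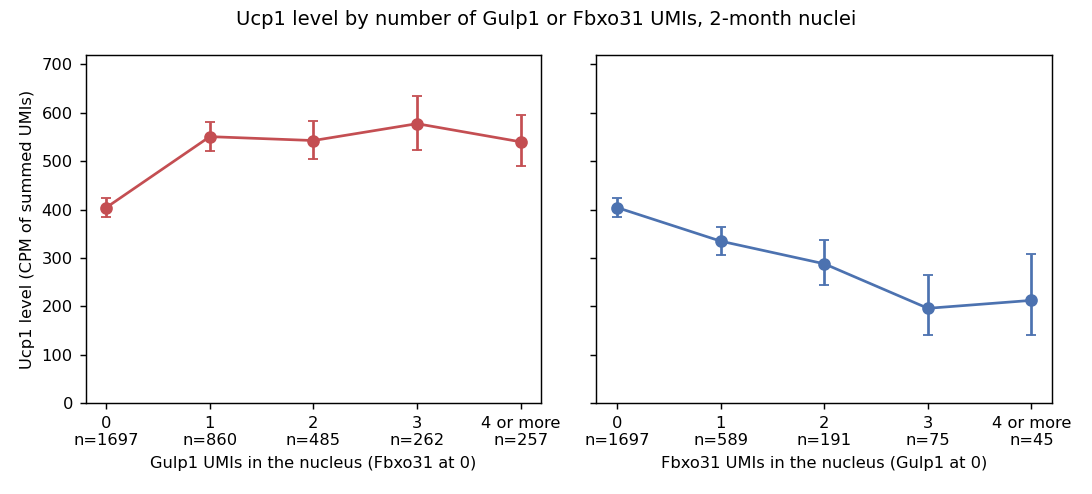
Ucp1 level in CPM of summed UMIs (y axis) in 2-month nuclei of 2000 to 4000 UMIs, by the number of Gulp1 UMIs with Fbxo31 at 0 (left) and of Fbxo31 UMIs with Gulp1 at 0 (right). Points are levels, bars exact 95% Poisson intervals and n the number of nuclei. Ucp1 was at 404 CPM without Gulp1 and at 551 CPM with 1 Gulp1 UMI, stayed between 540 and 577 CPM beyond that, and was lower with more Fbxo31 UMIs, at 196 CPM with 3.

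In all, 9409 genes had at least 20 UMIs in the groups together, with Gulp1 and Fbxo31 left out. Of these, 1069 (11.4%) were at least 1.5-fold higher in Gulp1 nuclei and 696 (7.4%) at least 1.5-fold higher in Fbxo31 nuclei, and such genes are called higher below. Many calls rested on few UMIs, since the median gene called higher had 45 and 43 UMIs against 118 for all genes tested. With an interval that also excluded a ratio of 1, 334 (3.55%) and 254 (2.7%) were left, and at 2-fold 429 (4.56%) and 155 (1.65%). The median of all genes was 0.03 on the log2 scale. Without nuclei holding a fibroblast marker UMI, 857 of the 1069 genes and 566 of the 696 were called again.

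Of the 29 measured genes of thermogenesis and adrenergic signalling, 3 were called higher in Gulp1 nuclei, 0 in Fbxo31 nuclei and 26 differed by less than 1.5-fold, against 11.4% and 7.4% of all genes. The median of the list was 0.15 on the log2 scale, and its summed level was 28025 CPM against 26577 CPM. The 3 genes were Ucp1, Prdm16 and Dio2. Prdm16, a transcriptional regulator that fixes brown adipocyte identity, stood at 553 CPM in Gulp1 nuclei, 439 CPM in nuclei with both genes, 445 CPM in nuclei with neither and 339 CPM in Fbxo31 nuclei, a ratio of 1.63 (1.44 to 1.85). Dio2 stood at 34.3, 19.5, 15.9 and 11.4 CPM in the same order, a ratio of 3.01 (1.57 to 6.47) that rested on 97 and 10 UMIs. Their ratios in deeper nuclei of 4000 to 8000 UMIs were 1.45 (1.22 to 1.74) and 2.57 (1.03 to 8.23).

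Most other genes of the thermogenic programme differed by less than 1.5-fold, and some leaned towards Gulp1 nuclei. Ppargc1a, a coactivator that drives mitochondrial gene expression, was at 392 and 327 CPM, a ratio of 1.2 (1.05 to 1.37). Cidea, a lipid droplet protein of brown fat, was at 1075 and 1017 CPM. The beta-3 adrenergic receptor Adrb3 was at 186 and 190 CPM, a ratio of 0.984 (0.825 to 1.18), and Ebf2, an early factor of the brown lineage, at 1402 and 1533 CPM. Ppara, a nuclear receptor of fatty acid oxidation, was at 3619 and 2707 CPM, a ratio of 1.34 (1.28 to 1.40). Among 36 nuclear genes of oxidative phosphorylation 1 (Atp5h) was called higher in Gulp1 nuclei and 0 in Fbxo31 nuclei, with a median of -0.04 on the log2 scale and sums of 3910 and 4032 CPM. Among 20 genes of fatty acid oxidation 2 were called higher in Gulp1 nuclei (Ehhadh and Etfdh) and 0 in Fbxo31 nuclei. Of the 20, 16 had ratios above 1 and 4 below, with a median of 0.21 on the log2 scale. Their sums were 7365 and 6720 CPM, a ratio of 1.10 (1.06 to 1.13). Over all genes 11.4% and 7.4% were called in these directions.

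Growth hormone acts through its receptor and JAK2 on STAT5, which switches on Cish, Socs2 and Igf1. A joint list of insulin and growth hormone signalling genes had 20 measured members. Of these, 5 were called higher in Gulp1 nuclei and 0 in Fbxo31 nuclei, beside 11.4% and 7.4% of all genes. The median was 0.23 on the log2 scale and the sums were 12825 and 9780 CPM, much of each from Ghr. In nuclei with 0 fibroblast marker UMIs 4 of 20 were called higher in Gulp1 nuclei, since Socs2 was then at 1.37. Ghr, the growth hormone receptor, stood at 7223 CPM in Gulp1 nuclei, 5827 CPM in nuclei with both genes, 5039 CPM in nuclei with neither and 4382 CPM in Fbxo31 nuclei, a ratio of 1.65 (1.59 to 1.71). Cish, a feedback inhibitor of STAT5, was at 56.6 and 17.1 CPM, a ratio of 3.31 (1.94 to 6.04). Igf1, the growth factor, was at 35.4 and 6.85 CPM on 100 and 6 UMIs, a ratio of 5.16 (2.29 to 14.4), and at 6.08 without nuclei holding a fibroblast marker UMI. Socs2, another inhibitor, was at 30.4 and 19.4 CPM, with an interval that included 1 (0.924 to 2.81). Pik3r1, a regulatory subunit of PI3 kinase, was at 325 and 203 CPM, a ratio of 1.60 (1.36 to 1.89). In nuclei of 1000 to 2000 and of 4000 to 8000 UMIs its ratio was 1.04 (0.769 to 1.42) and 1.25 (1.03 to 1.53). In the same order Igf1 was at 4.75 (0.703 to 203) and 2.14 (1.03 to 5.14), and Socs2 at 1.49 (0.473 to 6.15) and 3.52 (1.44 to 11.2). Ghr was at 1.42 (1.33 to 1.52) and 1.81 (1.73 to 1.89), and Cish at 4.89 (1.55 to 24.8) and 4.40 (1.96 to 12.2). The kinase and the transcription factors themselves were nearer to level, with ratios of 0.897 (0.639 to 1.28) for Jak2, 1.36 (1.09 to 1.70) for Stat5a and 1.08 (0.917 to 1.28) for Stat5b. The insulin receptor Insr had a ratio of 1.07 (0.974 to 1.18).

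Sequences around the start are shown for Dio2 and Cish because both were higher in Gulp1 nuclei and each carried a match to a site that a hormone-driven factor is known to bind. The stretches come from RefSeq promoter windows on GRCm38.p6, with matches in capitals, TGACGTCA (the cAMP response element) for Dio2 and TTCNNNGAA (the STAT site) for Cish. The Dio2 stretch, chr12:90739099-90739158 on the minus strand, covers bases -120 to -61, upstream of the start. The Cish stretch, chr9:107296659-107296682 on the plus strand, covers the first 24 bases downstream of the start, inside the gene, and holds 2 matches.
Dio2: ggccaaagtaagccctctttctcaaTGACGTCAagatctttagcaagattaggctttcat
Cish: TTCCTGGAAagTTCTTGGAAatct
These matches describe the letters only. Among the other genes searched, TGACGTCA was in windows of Meg3 and Pwp1, and TTCNNNGAA in those of Dbp, Per1, Zfp772 and Zfp691. Meg3 and Dbp were called higher in Gulp1 nuclei and the rest in Fbxo31 nuclei. TGACGTCA was found on either strand in the windows of 3.69% of the 7367 genes tested that had a window, in 2.82% of those called higher in Gulp1 nuclei and in 3.68% of those called higher in Fbxo31 nuclei. TTCNNNGAA was found in 8%, 8.47% and 9.3% of the same sets. Over all 27025 genes with a window the shares were 2.03% and 9.55%. The windows of Gulp1, Fbxo31 and Ucp1 held no match to these, nor to CACGTG, TTATGNAA or TGTTTAC.

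The genes with the largest ratios towards Gulp1 nuclei mixed adipocyte genes with fibroblast genes. Of 5907 genes with at least 20 CPM in one group and 30 UMIs together, the 15 highest were Trabd2b, Egfr, Col5a3, Igf1, Lama2, Col3a1, Nr4a1, Plpp3, Arhgap6, Gramd4, Zfyve21, Meg3, Plxdc2, Cish and Sik1, from 6.20-fold for Trabd2b to 3.23-fold for Sik1. Lama2 and Col3a1 are themselves among the fibroblast markers. Egfr, the epidermal growth factor receptor, was at 5.99-fold (1.95 to 29.9) in all nuclei and at 1.60-fold without nuclei holding a fibroblast marker UMI. Plxdc2 fell from 3.41-fold to 1.32-fold, the collagen gene Col5a3 from 5.45-fold to 2.05-fold and the noncoding RNA Meg3 from 3.41-fold to 2.15-fold. Arhgap6, at 821 CPM in nuclei of other cell types, fell from 4.18-fold to 2.88-fold. The first 4 of these genes were also rich in nuclei of other cell types, at 486, 1560, 383 and 2115 CPM. In nuclei of 4000 to 8000 UMIs Egfr, Col5a3, Col3a1, Meg3 and Plxdc2 had ratios below 1, of which only that of Meg3 had an interval that excluded 1, and the other 10 of the 15 had ratios above 1. The part of fibroblast RNA in these ratios was not tested beyond these values.

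Nr4a1, Plpp3 and Trabd2b of the 15 had ratios without those nuclei close to or above those in all nuclei. Nr4a1, an orphan nuclear receptor induced by adrenergic signals, was at 64.4 and 14.8 CPM, a ratio of 4.34 (2.47 to 8.30), and of 4.37 without nuclei holding a fibroblast marker UMI. In deeper nuclei it was at 6.48 (2.46 to 24.2). Sik1, a kinase induced by cAMP that restrains CREB coactivators, was at 44.2 and 13.7 CPM, a ratio of 3.23 (1.78 to 6.41), and of 2.99 without those nuclei. Plpp3, a lipid phosphatase, was at 34.3 and 8.0 CPM, with a ratio of 4.29 in all nuclei and 5.25 without those nuclei. Trabd2b, a metalloprotease that inhibits Wnt signals, was at 21.2 and 3.43 CPM on 60 and 3 UMIs, with ratios of 6.20 (2.02 to 30.9) and 6.08. Immediate early genes and heat shock genes had 7 measured members. Of these, Nr4a1 and Jund were called higher in Gulp1 nuclei and 0 in Fbxo31 nuclei, beside 11.4% and 7.4% of all genes. Jun was at 30.1 and 34.3 CPM.

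**Figure D2:**
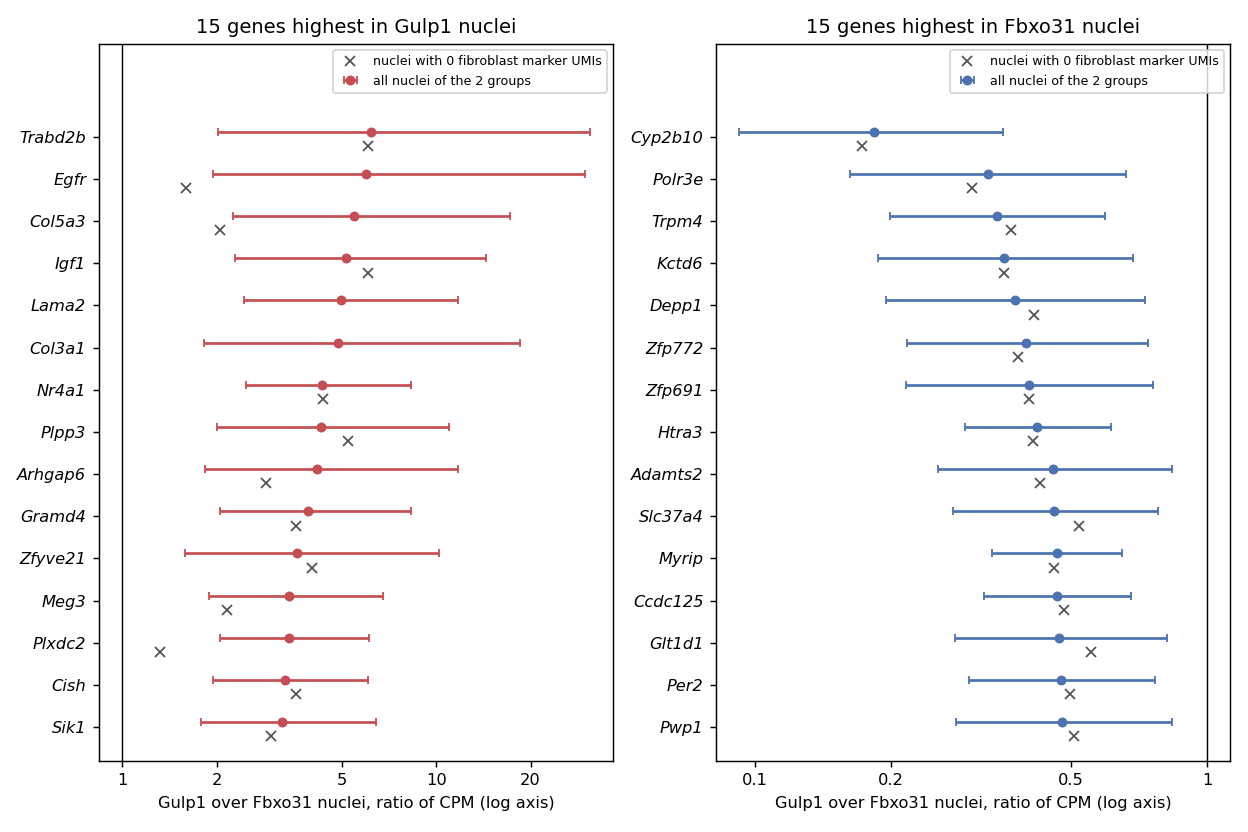
Ratio of CPM between Gulp1 and Fbxo31 nuclei (log axis) for the 15 genes highest in each group. Circles with bars are all nuclei with exact 95% intervals, and crosses are nuclei with 0 UMIs over the 6 fibroblast markers, where Lama2 and Col3a1 have no value. Crosses of Egfr (1.60), Plxdc2 (1.32), Col5a3 (2.05) and Meg3 (2.15) lie left of their circles, and those of Igf1 (6.08) and Nr4a1 (4.37) do not.

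The genes highest in Fbxo31 nuclei rested on few UMIs, 18 to 64 in that group. The 15 were Cyp2b10, Polr3e, Trpm4, Kctd6, Depp1, Zfp772, Zfp691, Htra3, Adamts2, Slc37a4, Myrip, Ccdc125, Glt1d1, Per2 and Pwp1. Cyp2b10, a cytochrome P450 induced by the nuclear receptor CAR, was at 30.8 CPM in Fbxo31 and 5.66 CPM in Gulp1 nuclei, with nuclei carrying both at 14.1 CPM and neither at 12.8 CPM. Its ratio was 5.45 (2.83 to 10.8) on 27 and 16 UMIs. Trpm4, a cation channel opened by calcium, was at 32.0 and 11.0 CPM, a ratio of 2.91 (1.68 to 5.02). Depp1, a target of FoxO factors, was at 21.7 and 8.14 CPM, and Slc37a4, the glucose 6-phosphate transporter of the endoplasmic reticulum, at 30.8 and 14.2 CPM. Htra3, a secreted serine protease, was at 60.5 and 25.5 CPM, a ratio of 2.38 (1.63 to 3.43). All 15 were on the same side in nuclei of 4000 to 8000 UMIs, 7 of them by 1.5-fold. In nuclei of 1000 to 2000 UMIs 11 of the 15 were, and Polr3e, Trpm4, Zfp691 and Ccdc125 were not.

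Ranking by ratio favours rare genes, so genes were also ranked, after these values had been seen, by the end of the interval nearest to 1. An interval narrows with counts, so this ranking brings in abundant genes by its construction. Of the 20 genes first towards Gulp1 nuclei 13 were among the 15 by ratio and stayed under 100 CPM in both groups, and the more abundant ones are described here. The first was Sntb1 (syntrophin beta 1, which ties membrane proteins to the cytoskeleton), at 421 CPM in Gulp1 nuclei, 322 CPM with both genes, 256 CPM with neither and 139 CPM in Fbxo31 nuclei, a ratio of 3.02 (2.51 to 3.67). Ext1, which builds heparan sulfate chains, was at 1510, 1153, 991 and 639 CPM in the same order, a ratio of 2.36 (2.16 to 2.58). Slc1a3, a glutamate and aspartate transporter, was at 658, 501, 410 and 279 CPM, a ratio of 2.36 (2.07 to 2.71). In each of these genes the nuclei with both chosen genes lay between the groups and above the nuclei with neither.

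Further genes of this kind were Clic4 (a chloride intracellular channel protein), Adamtsl3 (a secreted matrix protein) and Nos1ap (a binding partner of neuronal nitric oxide synthase). These genes stood at 234 and 86.8 CPM, 350 and 138 CPM, and 216 and 81.1 CPM, with ratios of 2.70, 2.54 and 2.67. Without nuclei holding a fibroblast marker UMI these were 2.86, 2.59 and 2.54. All 20 genes ranked first in this way were higher in Gulp1 nuclei of 1000 to 2000 UMIs, and 15 were in those of 4000 to 8000 UMIs.

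Towards Fbxo31 nuclei the most abundant was Fam13a, a gene linked to fat distribution and insulin sensitivity, at 9374 CPM in Fbxo31 nuclei, 7436 CPM with both genes, 7004 CPM with neither and 5838 CPM in Gulp1 nuclei, a ratio of 1.61 (1.56 to 1.65). Slc24a3, a sodium, potassium and calcium exchanger, was at 3349, 2353, 2405 and 1809 CPM, a ratio of 1.85 (1.77 to 1.94). Eda, the ligand ectodysplasin, was at 1048 and 554 CPM, a ratio of 1.89 (1.74 to 2.05). Ano1, a chloride channel opened by calcium, was at 468 and 258 CPM, and Cdo1, which oxidises cysteine on the way to taurine, at 460 and 260 CPM. Pid1, an inhibitor of insulin signalling in fat and muscle cells, was at 349 and 179 CPM, a ratio of 1.95 (1.68 to 2.25).

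Zfp423, a transcription factor that holds adipocytes towards the white type, was at 99.3 CPM in Fbxo31 nuclei and 48.1 CPM in Gulp1 nuclei, a ratio of 2.06 (1.56 to 2.72), with nuclei of both and of neither at 69.6 and 79.6 CPM. In nuclei of 1000 to 2000 UMIs Zfp423 was on the other side, on 51 UMIs in Gulp1 and 15 in Fbxo31 nuclei. The list of white adipocyte markers went the other way from Zfp423. Its sum was 310 CPM in Gulp1 and 250 CPM in Fbxo31 nuclei, a ratio of 1.24 (1.07 to 1.44). Of its 5 measured members 2, Lep and Slc7a10, were called higher in Gulp1 nuclei, beside 11.4% of all genes. Lep and Slc7a10 had 3 and 4 UMIs in Fbxo31 nuclei. Trp53inp1, a stress protein induced by p53, was at 155 and 74.7 CPM, a ratio of 2.08 (1.66 to 2.59). Cyp27a1, which oxidises cholesterol side chains, was at 105 and 50.6 CPM, a ratio of 2.08 (1.58 to 2.72). All 20 genes ranked first towards Fbxo31 nuclei kept that side in nuclei of 4000 to 8000 UMIs, and 15 did in nuclei of 1000 to 2000 UMIs, where Trpm4, Zfp423, Polr3e, Maml3 and Ccdc125 did not.

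The pattern was checked in nuclei that the comparison had not used. In the 419 Gulp1 and 99 Fbxo31 nuclei of 4000 to 8000 UMIs, 20 genes were taken for each side by the interval, and their ratios were then read in the nuclei of 2000 to 4000 UMIs. Of the 20 taken towards Gulp1 nuclei, 19 lay above 1 and 14 were called higher, with a median of 1.02 on the log2 scale, beside 11.4% called among all genes. Of the 20 taken towards Fbxo31 nuclei, 18 lay below 1 and 12 were called higher there, with a median of -0.67, beside 7.4%. Bnip3l on the first side and Iigp1 on the second were among those that went the other way. The plan had been to take genes by ratio, and taking them by interval was added after the data had been seen. Taken by ratio, 15 and 13 of 20 kept their side, with medians of 0.41 and -0.23. Towards Gulp1 nuclei 5 of 20 were called higher there and 1 in Fbxo31 nuclei. Towards Fbxo31 nuclei 8 were called higher there and 6 in Gulp1 nuclei. Gulp1 over Fbxo31 ratios of the 2 sums were 1.39 (1.24 to 1.57) and 0.889 (0.790 to 1.003), so the second did not separate the groups. The nuclei differ but the library and the rule are shared, so this is no replicate.

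**Figure D3:**
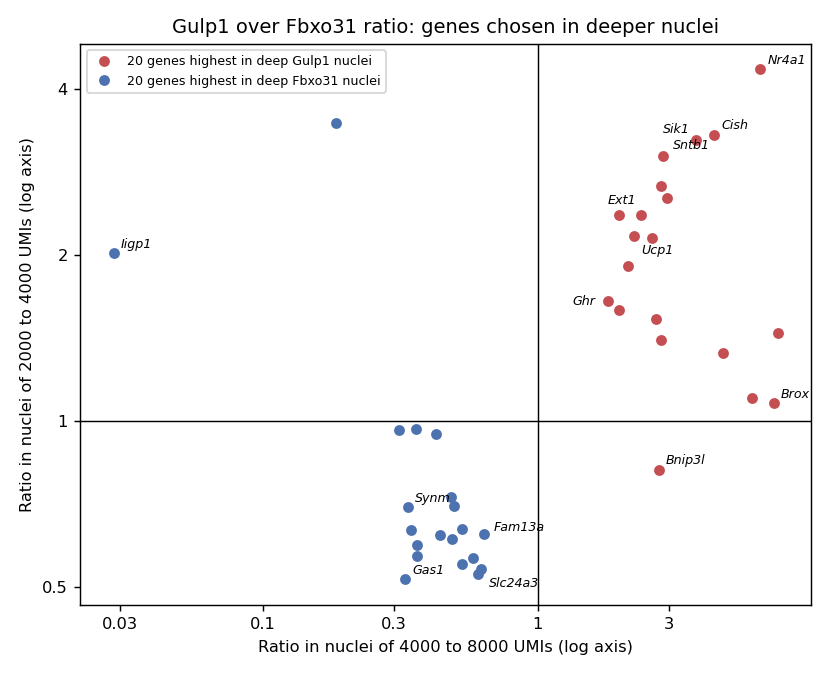
Ratio of CPM between Gulp1 and Fbxo31 nuclei for 40 genes taken by interval in nuclei of 4000 to 8000 UMIs (x axis, log) and read in nuclei of 2000 to 4000 UMIs (y axis, log). Red points are the 20 genes taken towards Gulp1 nuclei and blue points the 20 towards Fbxo31 nuclei. Of the red points 19 lie above a ratio of 1, and of the blue points 18 lie below it.

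Summed over each list taken by interval, nuclei with both genes and with neither lay between the 2 groups. Few UMIs decided membership, so these sums cannot tell a gradient from a mixture of separate kinds of nuclei. The first list was at 13561 CPM in Gulp1 nuclei, 10727 CPM in nuclei with both genes, 9406 CPM in nuclei with neither and 7471 CPM in Fbxo31 nuclei. Per nucleus this was a median of 36 UMIs with quartiles of 26 and 47 in Gulp1 nuclei, and 18 with quartiles of 14 and 26 in Fbxo31 nuclei, so the upper quartile of the latter met the lower quartile of the former at 26. The second list was at 9586, 12236, 11878 and 15993 CPM in the same order, with medians of 24 and 42 UMIs per nucleus and quartiles of 18 and 33 against 32 and 55. Nuclei of other cell types had 6111 and 7582 CPM of the lists. Much of each sum was 1 gene, Ghr in the first list and Fam13a in the second. The other 19 genes of the first list stood at 6338, 4900, 4367 and 3089 CPM in that order, a ratio of 2.05 (1.97 to 2.14), with medians of 17 and 8 UMIs per nucleus in Gulp1 and Fbxo31 nuclei. The other 19 of the second stood at 3748, 4799, 4873 and 6618 CPM, a ratio of 1.77 (1.71 to 1.82) towards Fbxo31 nuclei, with medians of 10 and 18.

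Glucocorticoid hormones act through a nuclear receptor that raises genes such as Fkbp5, Zbtb16 and Per1. Of 11 measured targets 5 were called higher in Fbxo31 nuclei and 0 in Gulp1 nuclei, beside 7.4% of all genes, with a median of -0.19 on the log2 scale. Only Zbtb16, a zinc finger factor, had an interval that excluded 1, at 537 CPM in Fbxo31 and 328 CPM in Gulp1 nuclei and a ratio of 1.64 (1.46 to 1.83). Fkbp5, a chaperone of the receptor, was at 11.4 and 4.60 CPM on 10 and 13 UMIs, a ratio of 2.48 (0.974 to 6.13). Cdkn1a, Mt2 and Per1 were called on 9 to 24 UMIs in Fbxo31 nuclei. In nuclei of 4000 to 8000 UMIs Zbtb16 kept its side, Fkbp5 had 8 UMIs in Gulp1 and 0 in Fbxo31 nuclei, and Cdkn1a was on the other side at a Gulp1 over Fbxo31 ratio of 1.62 (0.629 to 5.30). Tsc22d3, Pdk4 and Klf9, the better measured targets, had ratios towards Fbxo31 nuclei of 1.07, 0.932 and 1.13, and the receptor gene Nr3c1 one of 0.938 (0.829 to 1.06).

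The circadian clock turns on a loop in which BMAL1 (Arntl) and CLOCK raise the Per and Cry genes, whose proteins then repress them. Of 17 measured members 2 were called higher in Gulp1 nuclei (Arntl and Dbp) and 2 in Fbxo31 nuclei (Per1 and Per2), shares near those of 11.4% and 7.4% over all genes. In nuclei with 0 fibroblast marker UMIs the counts were 1 and 3, with Arntl at 1.43. Arntl was at 96.9 and 63.9 CPM, a ratio of 1.52 (1.13 to 2.06). Per2 was at 17.3 CPM in Gulp1 nuclei and 36.5 CPM in Fbxo31 nuclei, a ratio of 2.11 (1.31 to 3.36) towards the latter. Dbp, an output gene of the loop, had 20 and 3 UMIs. Clock, at 218 and 228 CPM, and Nr1d1, at 52.0 and 52.5 CPM, were close to level.

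The upstream sequences of Per1 and Fkbp5 are shown because Per1 belongs to both of these lists and both windows carried CACGTG, the E-box that BMAL1 and CLOCK bind. Capitals mark CACGTG in both and TTATGCAA, a match to TTATGNAA (the D-box), in Per1. The Per1 stretch, chr11:69098769-69098948 on the plus strand, covers bases -180 to -1 from the start. The Fkbp5 stretch, chr17:28486290-28486339 on the minus strand, starts 190 bases before the start and is 50 bases long.
Per1: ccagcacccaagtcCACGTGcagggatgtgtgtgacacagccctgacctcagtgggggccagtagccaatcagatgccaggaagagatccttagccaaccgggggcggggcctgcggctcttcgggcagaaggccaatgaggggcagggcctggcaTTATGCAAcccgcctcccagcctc
Fkbp5: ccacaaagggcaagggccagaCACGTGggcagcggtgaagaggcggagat
CACGTG was found in 12.2% of tested genes, 12.6% of those called higher in Gulp1 nuclei and 10.5% of those called higher in Fbxo31 nuclei, and in 8.09% of all 27025 genes. For TTATGNAA the shares were 2.29%, 1.65%, 3.88% and 3.99%.

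Genes of lipid handling went in both directions. The counts called stand beside 11.4% of all genes towards Gulp1 and 7.4% towards Fbxo31 nuclei. Fatty acid uptake genes summed to 7395 and 6053 CPM, with 1 of 13 measured members called higher (Fabp5, on 18 and 2 UMIs), and 0 of 12 without nuclei holding a fibroblast marker UMI. Fabp4, the fatty acid carrier of fat cells, was at 1204 and 839 CPM, a ratio of 1.43 (1.32 to 1.56). Acsl1, which activates fatty acids, was at 2811 and 2023 CPM, a ratio of 1.39 (1.32 to 1.46), and Lpl, the lipase of the vessel wall, at 848 and 639 CPM. De novo lipogenesis genes were level in sum, at 15472 and 15776 CPM, with 2 of 15 called higher in Gulp1 nuclei (Elovl5 and Srebf1). The last step of triglyceride synthesis, Dgat2, was at 784 and 1006 CPM, a ratio of 0.779 (0.721 to 0.844). Of 14 cholesterol genes 4 were called higher in Gulp1 nuclei, of which Hmgcs1 at 139 and 81.1 CPM was the best measured, and Fdft1 was called higher in Fbxo31 nuclei at 251 and 145 CPM, a ratio of 1.73 (1.46 to 2.04).

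The extracellular matrix list had 6 of 12 measured members called higher in Gulp1 nuclei and 0 in Fbxo31 nuclei, beside 11.4% and 7.4% of all genes. They were Adamtsl3, Col15a1, Col3a1, Col5a2, Col6a3 and Nid1. Without nuclei holding a fibroblast marker UMI, 2 of 8 measured members were, so this count moved with the fibroblast markers. The lists around the chosen genes were flat. Of 8 measured partners of Gulp1 in engulfment 0 were called higher in Gulp1 nuclei and 1 (Elmo1) in Fbxo31 nuclei, and of 13 F-box and cullin ligase genes around Fbxo31 none was called in either direction. Of 14 genes of pyroptosis and the inflammasome, the subject of the study, 2 were measured. Casp8, on 35 and 6 UMIs, was called higher in Gulp1 nuclei at 1.81 (0.752 to 5.26), and Hmgb1 was at 53.4 and 71.9 CPM.

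**Figure D4:**
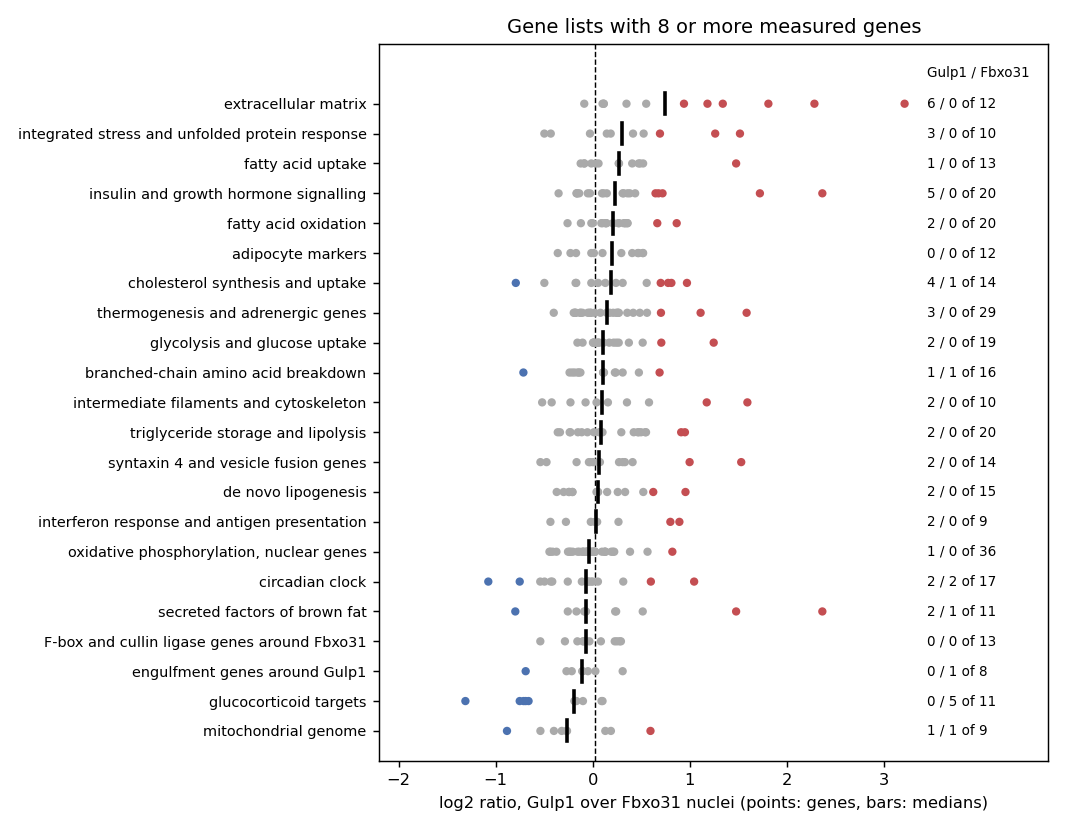
log2 ratio between Gulp1 and Fbxo31 nuclei for the measured genes of lists with 8 or more such genes. Points are genes, red where at least 1.5-fold higher in Gulp1 nuclei and blue where at least 1.5-fold higher in Fbxo31 nuclei, black bars are list medians and the dashed line is the median of all 9409 genes (0.03). Numbers at the right give genes called towards Gulp1 and Fbxo31 nuclei, such as 3 and 0 of 29 for thermogenesis and 0 and 5 of 11 for glucocorticoid targets.

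The older libraries held few such nuclei. With the same depth window, marker limit and rule, 28 Gulp1 and 43 Fbxo31 nuclei were found among 3815 at 12 months, and 34 and 36 among 2137 at 24 months, or 0.734% and 1.13%, and 1.59% and 1.68%. At 2 months the shares were 19.4% and 6.01%. Gulp1 in all nuclei under the marker limit was at 375 CPM in the youngest library, 17.5 CPM (15.2 to 20.2) in the 12-month and 27.1 CPM (23.2 to 31.4) in the 24-month library. Fbxo31 was at 175 CPM in the first, 39.2 CPM (35.6 to 43.0) in the second and 42.6 CPM (37.7 to 48.0) in the last. In nuclei of other cell types Gulp1 was at 411, 354 and 421 CPM. Age, library and preparation cannot be told apart here.

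Older nuclei that met the Gulp1 rule carried markers of other cell types. At least 1 fibroblast marker UMI was present in 60.7% (40.6 to 78.5) of them at 12 months and in 85.3% (68.9 to 95) at 24 months, against 6.98% (1.46 to 19.1) and 16.7% (6.37 to 32.8) of the Fbxo31 nuclei. Pericyte and smooth muscle markers were also higher in the Gulp1 nuclei, at 217 against 47.1 CPM at 12 months, a ratio of 4.61 (1.74 to 14.3), and at 303 against 8.73 CPM at 24 months on 28 UMIs and 1. Adipocyte markers in the older Gulp1 nuclei were lower, at 10241 against 15971 CPM at 12 months and 8453 against 17652 CPM at 24 months. Ucp1 was then lower in the Gulp1 nuclei, at 192 against 533 CPM at 12 months, a ratio of 0.359 (0.191 to 0.635), and at 444 against 1572 CPM at 24 months, a ratio of 0.282 (0.196 to 0.398). Leaving out nuclei with a fibroblast marker UMI left 11 and 5 Gulp1 nuclei, with Ucp1 ratios of 0.604 (0.287 to 1.15) on 11 UMIs and 0.309 (0.111 to 0.687) on 6 UMIs. Under this rule the direction of Ucp1 at 2 months was not found in either older library. Levels were also read by Gulp1 alone, in nuclei without Fbxo31 or a fibroblast marker UMI. At 12 months Ucp1 was at 645, 716 (596 to 852) and 325 CPM (162 to 581) with 0, 1 and 2 or more UMIs. These were 3128, 58 and 11 nuclei. At 24 months it was at 1515, 1303 (1111 to 1519) and 503 CPM (185 to 1095), on 1708, 41 and 5 nuclei. In the 2-month library the same reading gave 403, 547 and 553 CPM.

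Ucp1 was also read by Fbxo31 alone. Among nuclei without Gulp1 or a fibroblast marker UMI, Ucp1 was at 645, 591 and 538 CPM with 0, 1 and 2 or more Fbxo31 UMIs at 12 months, on 3128, 314 and 40 nuclei, with an interval of 414 to 687 CPM for the last. At 24 months it was at 1515, 1599 and 1631 CPM on 1708, 179 and 30 nuclei. Those last 30 nuclei held 126 skeletal muscle marker UMIs, 125 of them in 1 nucleus, and without nuclei holding such a UMI Ucp1 was at 1519, 1585 and 1701 CPM. In the 2-month library the same reading gave 403, 338 and 257 CPM (224 to 294) on 1590, 550 and 293 nuclei. The lists taken by interval in deep nuclei of 2 months differed less between the groups at older ages. For the first list the Gulp1 over Fbxo31 ratios were 1.82, 1.22 (1.10 to 1.36) and 0.824 (0.744 to 0.912) at 2, 12 and 24 months. At 24 months it thus lay on the other side. For the second they were 0.599, 0.861 (0.767 to 0.965) and 0.921 (0.817 to 1.04). Without nuclei holding a fibroblast marker UMI the first list kept its direction in the older libraries, at 1.67 (1.46 to 1.89) on 11 Gulp1 nuclei and 1.35 (1.11 to 1.63) on 5, and the second was at 0.98 (0.841 to 1.14) and 0.812 (0.605 to 1.07).

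**Figure D5:**
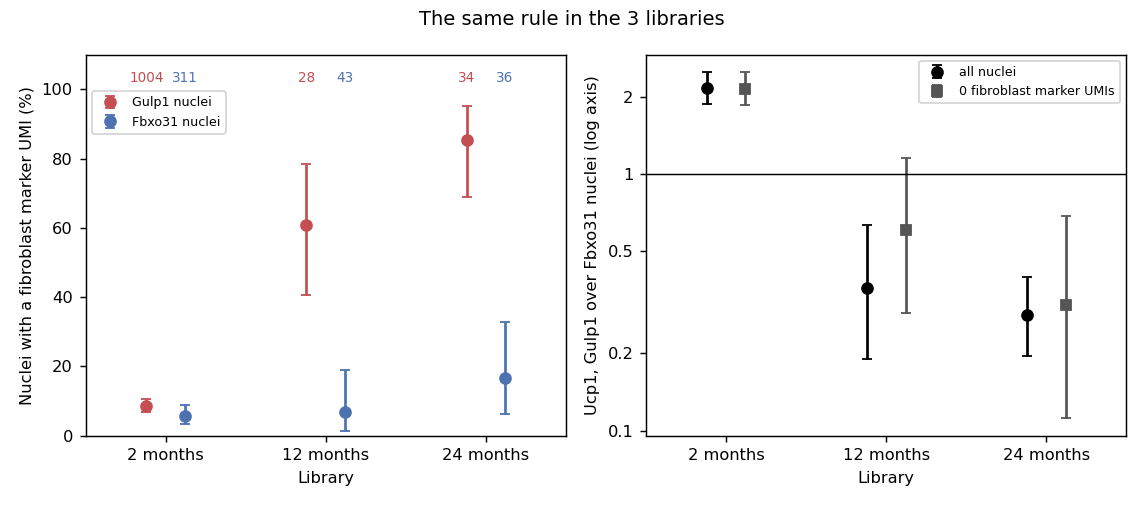
The same rule applied to the 3 libraries. Left, the share of Gulp1 (red) and Fbxo31 (blue) nuclei with at least 1 fibroblast marker UMI, in percent with exact 95% intervals and the number of nuclei above, and right, the Ucp1 ratio between them (log axis) in all nuclei (circles) and in those with 0 fibroblast marker UMIs (squares). The share among Gulp1 nuclei was 8.67%, 60.7% and 85.3%, and the Ucp1 ratio 2.16, 0.359 and 0.282.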

How the data were processed

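The authors made the deposited UMI counts per gene and barcode with Cell Ranger (7.0.1 in the submitters' processing notes) on mm10, forcing each library to 10000 barcodes. The libraries held 28977002, 45819738 and 37135296 UMIs. The study's own filter, set to leave out multiplets and poor droplets, kept barcodes of 200 to 2000 UMIs. The nuclei compared here lie at or above that upper limit. The sources used here do not say whether introns were counted, or by strand. Pairs of libraries shared 20 to 28 barcodes of 10000. No doublet caller was run, and the upper limit of 4000 UMIs and the limit on markers of other cell types are the only guards.

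The members and gene lists were chosen with earlier results of these data known. Counts were summed over nuclei and divided by the total (CPM), with exact Poisson intervals for levels, Clopper-Pearson intervals for shares and conditional binomial intervals for ratios (Python 3.11.15, scipy 1.17.1). A gene at 0 was given 3 counts for its fold. The comparison was tested on simulated data. Genes named are the chosen genes, list members and the 15 highest and lowest ratios, without predicted, mitochondrial and ribosomal genes. Genes ranked by interval and nuclei without fibroblast UMIs were added after the data had been seen. Positions follow GENCODE vM21, which held 99.8% of the 32285 gene identifiers. RefSeq windows were found for 37 of 46 genes searched. Alternatives changed depth, UMI and marker limits, weighting, scaling and thresholds. Some items are not reported here.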

Additional observations from a re-analysis of the deposited data

Results flagged for a closer look

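For Ucp1 and the summed thermogenesis list, the 4 ratios in the older libraries were flagged because they went the opposite way from the 2-month library. The rule was the same, and the difference between libraries was not tested. Ucp1 in Gulp1 over Fbxo31 nuclei was 2.16 in the 2-month library, but 0.359 in that of 12 months and 0.282 in that of 24 months. The summed thermogenesis and adrenergic list was 1.05 in the youngest library and 0.516 and 0.327 in the older ones. Other lists that were not flagged also turned. At 2, 12 and 24 months adipocyte markers were at 1.08, 0.641 and 0.479, and fatty acid oxidation genes at 1.10, 0.451 and 0.469. Not every list did, and extracellular matrix genes were at 1.26, 3.55 and 3.81. The older Gulp1 groups held 28 and 34 nuclei, of which 50% and 47.1% carried none of the 8 markers of other cell types, against 91.2% at 2 months. Without nuclei holding a fibroblast marker UMI the thermogenesis list was at 0.820 and 0.715 in the older libraries, on 11 and 5 Gulp1 nuclei. Adipocyte markers were then at 1.04 (0.944 to 1.14) and 1.25 (1.09 to 1.42).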

How the results depend on the processing

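Ucp1 kept its direction under the 12 alternatives, from 0.61 to 1.46 on the log2 scale around the reported 1.11. It moved beyond its interval to 0.61 in nuclei of 1000 to 2000 UMIs, 0.85 with at least 1 UMI of the chosen gene and 1.46 with at least 3. The thermogenesis median stayed between 0.05 and 0.19. Counts of genes called towards Gulp1 and Fbxo31 nuclei moved by over 1.5 times from 1069 and 696 in 3 settings, to 1902 and 5405 without a low-count filter, 429 and 155 at 2-fold, and 334 and 254 with an interval excluding 1. Calls towards Gulp1 nuclei were 60.6% of all calls, 26% without a low-count filter and 73.5% at 2-fold. Without that filter, a gene at 0 in Fbxo31 nuclei and with few UMIs in the larger Gulp1 group was called towards Fbxo31 nuclei. This came from the 3 counts given to a gene at 0, so the 5405 calls and the 26% do not measure a direction. In nuclei of 4000 to 8000 UMIs the log2 ratios of Egfr (-0.49), Col5a3 (-1.34), Col3a1 (-0.75), Meg3 (-1.45) and Plxdc2 (-0.28) turned negative. In nuclei of 1000 to 2000 UMIs those of Polr3e (0.99), Trpm4 (0.54), Zfp691 (0.66), Ccdc125 (0.15) and Zfp423 (0.43) turned positive. There Polr3e rested on 5 and 1 UMIs, Trpm4 on 11 and 3, and Ccdc125 on 28 and 10. The ratios of these genes and of Zfp423 had intervals that included 1, so a change of side with depth is not shown for them. The cause was not tested. No paired analysis was possible because each age had 1 library. UMIs per gene limit the rarer genes, and differences between animals are not covered.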
